A study of Mus musculus with 168 samples.

Results

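The comparison was between ocular motor neurons of mice with spinal muscular atrophy (SMA) and those of littermate controls at postnatal day 2, the age the study calls pre-symptomatic. Its members were the 10 libraries whose group label joins the oculomotor and trochlear nuclei with day 2, out of 168 libraries in all, and each came from its own mouse. There were 4 control mice (14, 26, 28 and 244) and 6 SMA mice (16, 38, 206, 207, 209 and 211). SMA mice were delta7 animals of genotype Smn-/-/SMN2+/+/SMN∆7+/+, and controls were Smn+/+/SMN2+/+/SMN∆7+/+. Both groups therefore carried the human SMN2 gene and the human SMN∆7 transgene, and only the mouse gene Smn1 differed by design. About 150 neurons per tube were cut by laser from frozen sections of untreated brain and sequenced with Smart-seq2, a full-length cDNA method, from polyA RNA. Ocular neurons of other mice at day 5 (4 control, 5 SMA) and day 10 (4 control, 5 SMA) served to ask which day 2 differences were seen again.

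In SMA, motor neurons die because the survival motor neuron protein, SMN, is scarce. The SMN complex loads rings of Sm proteins onto small nuclear RNAs, which makes the small nuclear ribonucleoproteins (snRNPs) of the spliceosome. Motor neurons of the oculomotor and trochlear nuclei move the eyes and are relatively spared in the disease, while lumbar motor neurons are lost. A response known from vulnerable motor neurons is activation of the transcription factor p53, encoded by Trp53.

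Values are RPKM, the reads of a gene per its length and per the depth of the library, as the authors deposited them. Genes were tested on log2(RPKM + 1) with limma across the 6 ocular groups of genotype and age, and p-values were adjusted over all 15890 genes tested (Benjamini and Hochberg). A gene is called here when the adjusted p was under 0.05, and log2 fold changes are SMA minus control with the standard error (SE). The labels do not say whether mice of a group shared a litter, so p-values measure the spread between mice. That spread was 1 value per gene, pooled over the 28 ocular mice of all ages and moderated across genes. It is not the spread of the day 2 mice alone.

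Library depth, read from the steps of low RPKM values, was 5.30 to 8.30 M reads (mega-reads) in controls and 4.20 to 9.14 M in SMA mice. Genes above 0 numbered 13779 to 16136 in controls and 15460 to 17175 in SMA mice, with the fewest in control mouse 244. The motor neuron markers Prph (418 to 591) and Isl1 (96.96 to 182.7) were present in all 10 libraries. Chat was low only in control 244 (2.06) and SMA 206 (8.53). Phox2a was listed at 0 in controls 26 and 28 and in SMA mice 16, 206, 207 and 209. Summed motor neuron markers overlapped, at 890.3 to 1025 in controls and 653.7 to 937.2 in SMA mice. Of the 7 tested, none was called and 2 had a positive fold change. Slc5a7, also not called, was at least 166.4 in controls and at most 155.4 in SMA mice. SMA mouse 206 also held genes of serotonergic neurons (Tph2 428, Slc6a4 725), which reached at most 3.61 in controls and 31.9 in the other SMA mice. The summed level of 10 oligodendrocyte markers was 29.0 to 46.5 in controls and 51.1 to 171.8 in SMA mice, without overlap. Of the 10, 9 had a positive fold change, with a median of 0.52 against 0.09 over all genes. None was called, and 3 were higher at an unadjusted limma p under 0.05. Mbp was 0.513 to 15.6 in controls and 1.48 to 101.5 in SMA mice, highest in mouse 206. Mog, a defining gene of mature cells, stayed at or below 1.61. Astrocyte sums overlapped (1518 to 1818 and 1293 to 2208). Sums of the markers of peptidergic Edinger-Westphal neurons (Ucn, Cartpt and Cck) varied widely within both groups. They were 17.66 to 2145 in controls (median 992.9) and 3.124 to 2794 in SMA mice (median 59.91). None of the 3 genes was called. The part of these cells in the differences below was not tested. By the library numbers in the labels, 3 of the 4 controls come before all 6 SMA mice and control 244 after them. What these numbers mark is not given in the sources used here, and an order of preparation, if they give one, cannot be told apart from genotype.

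Smn1, the targeted gene, was low in every library labelled SMA. It lies at chr13:100124852-100137690 (GRCm38, GENCODE M21). The 4 control values were 4.32, 33.3, 35.4 and 47.9 RPKM, lowest in mouse 14. In SMA mice Smn1 was listed at 0 in 5 of 6, and the remaining mouse, 207, had 0.555. The log2 fold change was -4.47 (SE 0.43, adjusted p = 7.202e-07). Human SMN2, read from the transgenes, was 117.9 to 190.2 in controls and 106.1 to 197.6 in SMA mice, with a log2 fold change of -0.04 (SE 0.22, adjusted p = 0.967). None of the other 97 tested genes within 10 Mb of Smn1 was called by limma at any age, and 10 of them had an unadjusted p under 0.05 at day 2, 5 higher and 5 lower in SMA.

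At day 2 the ocular neurons of SMA mice differed from controls in 21 of 15890 genes, 0.132% of those tested. Of these, 16 were higher in SMA (0.101%), and 5 were lower (0.0315%), Smn1 and 4 others. The list held proteins of RNA processing and translation (Snrpa1, Clp1, Eif3g), mitochondrial proteins (Mrps34, Mrps28, Mul1), p53 itself (Trp53), and the chromatin regulator Msl3. In 18 of the 21 no SMA mouse overlapped with a control mouse. Psmg3, Tmem8b and Stat4 were the exceptions. Of all genes tested 1.6% did not overlap. The 21 were chosen for their difference in these same mice, so this share is no fair background. An unadjusted p under 0.05 was reached by 1787 genes (11.2%), 1169 of them higher in SMA. The number called rested on single mice: it was 9 without control 244 or without SMA mouse 206, 209 or 211, 7 without 244 and 206 together (3 of them among the 21), 34 without control 14 (12 among the 21) and 76 without control 28. When the 10 day 2 libraries were fitted alone, no gene was called, with 1260 genes at an unadjusted p under 0.05 and Smn1 itself at an adjusted p of 0.07529. Smn1, Cbx6_ann3, Mrps34 and Rce1 were called whichever single mouse was left out.

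**Figure D1:**
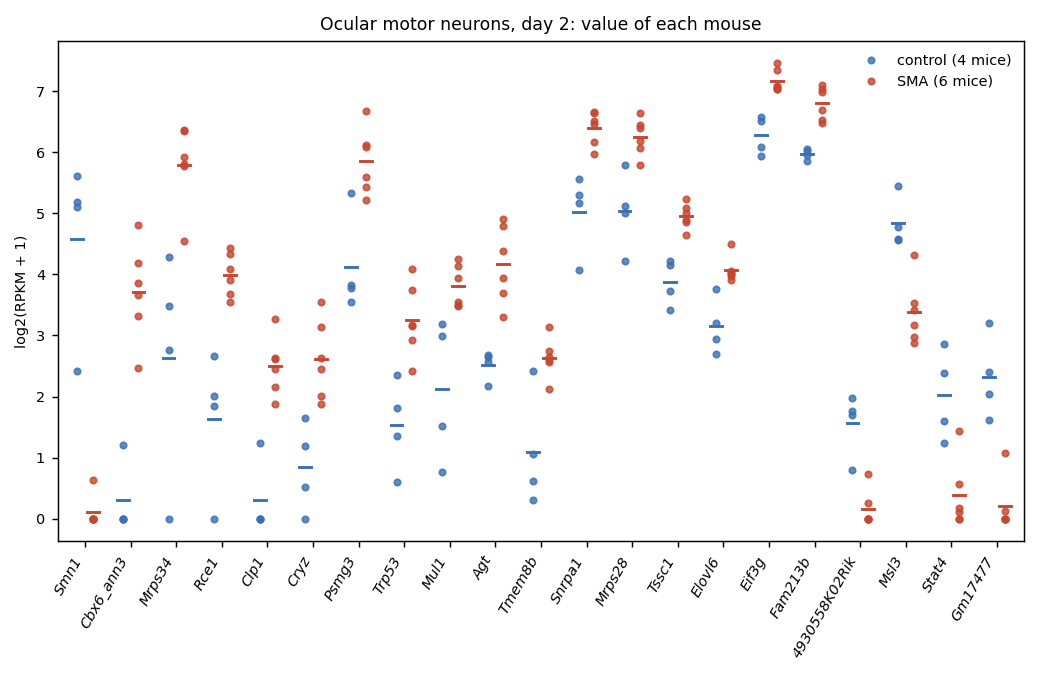
Value of each of the 4 control (blue) and 6 SMA (red) mice at day 2, as log2(RPKM + 1), for Smn1 and the 20 other genes called, ordered by fold change; bars are group means. The SMA and control points of Psmg3, Tmem8b and Stat4 overlap, and those of the other genes do not.

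Snrpa1 was the day 2 gene that held at every age. It encodes a protein of the U2 snRNP, the particle that recognises the branch site of introns, and lies at chr7:66059003-66074587. Its promoter is shown together with those of Agt and Trp53, since Snrpa1 and Agt are the day 2 genes other than Smn1 that were called again later and Trp53 is the gene of the p53 pathway. Each runs 5′ to 3′ from 250 bases before to 50 after a start in RefSeq (GRCm38.p6), and capitals mark the letters of 4 motifs searched on both strands. The motifs were the CCAAT box, the GC box written GGGCGG, the TATA box written TATAAA and the E-box written CACGTG. The Snrpa1 window lies wholly within the GENCODE span given above, downstream of where that span starts.
Snrpa1, chr7:66060086-66060385, plus strand: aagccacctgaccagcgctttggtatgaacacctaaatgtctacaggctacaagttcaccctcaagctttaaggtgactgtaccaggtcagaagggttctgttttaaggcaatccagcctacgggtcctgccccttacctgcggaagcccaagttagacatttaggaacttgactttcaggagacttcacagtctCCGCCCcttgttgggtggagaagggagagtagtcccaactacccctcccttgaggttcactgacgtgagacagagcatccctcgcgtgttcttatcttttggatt
Agt, chr8:124569657-124569956, minus strand: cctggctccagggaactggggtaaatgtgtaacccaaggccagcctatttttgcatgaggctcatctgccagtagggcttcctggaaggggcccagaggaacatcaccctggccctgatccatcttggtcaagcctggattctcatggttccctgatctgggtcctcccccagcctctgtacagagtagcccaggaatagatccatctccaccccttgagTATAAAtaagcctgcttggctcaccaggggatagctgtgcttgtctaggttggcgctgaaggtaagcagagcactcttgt
Trp53, chr11:69580109-69580408, plus strand: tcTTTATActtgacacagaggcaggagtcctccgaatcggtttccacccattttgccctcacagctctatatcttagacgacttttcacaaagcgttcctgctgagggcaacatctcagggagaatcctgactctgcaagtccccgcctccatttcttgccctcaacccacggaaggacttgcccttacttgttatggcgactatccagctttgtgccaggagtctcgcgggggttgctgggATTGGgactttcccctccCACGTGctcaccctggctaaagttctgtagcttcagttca
Snrpa1 holds 1 GC box, read on the opposite strand, Agt holds 1 TATA box, and Trp53 holds 1 CCAAT box, 1 TATA box and 1 E-box. Of the 20 genes without Smn1, 16 matched the promoter table by symbol or synonym, with 22 starts. The CCAAT box was in 11 of these 22 windows, the GC box in 9, the TATA box in 2 and the E-box in 4. Among 13852 windows of tested genes the shares were 37.4% for the CCAAT box, 60.8% for the GC box, 7.48% for the TATA box and 9.79% for the E-box. These are letter matches and say nothing of binding.

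In controls at day 2 Snrpa1 was 15.8, 34.9, 38.3 and 46.4 RPKM. SMA mice ran from 61.6 through a median of 88.3 to 100.3, all above every control. The log2 fold change was 1.37 (SE 0.25, adjusted p = 0.0211). At day 5 the controls were 33.7, 33.8, 38.8 and 44.2 and the SMA mice 72.2, 96.8, 108.7, 115.8 and 119.5 (log2 fold change 1.41, SE 0.26, adjusted p = 0.0441). Day 10 gave 21.9, 39.3, 55.8 and 63.2 in controls and 85.7, 94.02, 109.9, 111.6 and 122.4 in SMA mice (1.29, SE 0.26, adjusted p = 0.0142). The 2 groups did not overlap at any age, and the difference moved little between ages: day 5 minus day 2 was 0.04 (SE 0.37) and day 10 minus day 2 was -0.08 (SE 0.37). The day 2 call was lost without control 244 (adjusted p = 0.0818), in which Snrpa1 was lowest, and without SMA mouse 209 (adjusted p = 0.0557). It was also lost with only the day 2 groups (0.264), with libraries weighted by quality (0.205) and with the number of genes above 0 as a covariate (0.0647), where the fold change was 1.37, 1.31 and 1.31.

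Snrpa1 was alone among its kind at this age. Of 18 tested proteins of the U2 snRNP it was the only one called, and 14 had a positive fold change (median 0.18, against 0.09 over all genes, of which 58.17% were positive). None of 17 Sm and LSm proteins was called (median 0.24), with Snrpg and Lsm3 higher and Naa38 lower at an unadjusted p under 0.05. The 19 tested proteins of the other snRNPs had no call either (median 0.13). No member of the SMN complex list was called beside Smn1, where Gemin6 (log2 fold change 1.18, unadjusted p = 0.0384) and Coil (0.87, 0.0276) had the lowest p. The minor spliceosome list, 11 genes tested, had a median of 0.02 and no call.

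Clp1 and Eif3g were the other called genes of RNA processing and translation. Clp1 is an RNA kinase of tRNA splicing and mRNA 3′ end formation. It was listed at 0 in 3 controls and at 1.37 in control 244, and ran from 2.67 through a median of 4.80 to 8.63 in SMA mice, all of them higher (log2 fold change 2.19, SE 0.43, adjusted p = 0.0366). Eif3g, a subunit of the translation initiation factor eIF3, was 60.5, 67.1, 90.6 and 94.5 in controls and at least 130.5 in every SMA mouse, with a median of 134.1 and no overlap (0.89, SE 0.16, adjusted p = 0.0194). Among 80 tested cytosolic ribosomal proteins none was called, 67 had a positive fold change, and the median was 0.33, with 15 higher and 2 lower at an unadjusted p under 0.05. Of all 15890 genes 58.17% had a positive fold change, the median was 0.09, and 1169 were higher and 618 lower at such a p.

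Mitochondrial proteins were on the list. Mrps34 and Mrps28 are proteins of the small subunit of the mitochondrial ribosome, and Mul1 is a ubiquitin ligase of the mitochondrial outer membrane. Mrps34 (chr17:24895116-24897502) was listed at 0 in control 244 and at 5.77, 10.2 and 18.5 in the other controls. In SMA mice it ran from 22.3 through a median of 57.1 to 81.0, above every control (log2 fold change 3.16, SE 0.50, adjusted p = 0.00524). Mrps28 was 17.7, 30.9, 33.9 and 54.0 in controls and 54.3 to 98.6 in SMA mice, with a median of 77.5, so the highest control and the lowest SMA mouse nearly met (1.22, SE 0.24, adjusted p = 0.0361). Mul1 was 0.708, 1.88, 6.99 and 8.06 in controls and 10.2 to 18.1 in SMA mice with a median of 12.5 (1.69, SE 0.34, adjusted p = 0.0366). Of 75 mitochondrial ribosomal proteins tested, 2 were called, both higher, and 15 were higher and 1 lower at an unadjusted p under 0.05. Over all 15890 genes 21 were called (0.132%), and 1169 were higher and 618 lower at such a p. The median of the 75 was 0.11, close to the 0.09 of all genes. Mrpl24 came nearest to a call (1.39, SE 0.33, adjusted p = 0.0919). None of 79 nuclear subunits of oxidative phosphorylation was called (median 0.16, 11 higher and 0 lower at an unadjusted p under 0.05), with Atp5e, of ATP synthase, at 0.68 (SE 0.16, adjusted p = 0.0737). The 9 mitochondrially encoded genes tested had a median of -0.21 and no call.

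Trp53 (chr11:69580359-69591873) was low in the controls, at 0.509, 1.56, 2.52 and 4.09 RPKM. SMA mice ran from 4.36 through a median of 7.97 to 16.1, so the lowest SMA mouse was just above the highest control. The log2 fold change was 1.72 (SE 0.36, adjusted p = 0.0459), and the call held in only 3 of the 10 fits that left out 1 mouse. No target of p53 was called at this age: of 47 tested, 23 had a positive fold change, and their median was 0. Short of a call, Btg2 had a fold change of 1.58 (unadjusted p = 0.00583), Bax of 0.62 (0.0136), Tob1 of -0.82 (0.0297) and Ptp4a3 of -0.61 (0.0219). Cdkn1a, which encodes the cell cycle inhibitor p21, was 35.98, 37.98, 56.9 and 62.7 in controls and 48.0 to 91.6 in SMA mice, overlapping (0.60, SE 0.34, adjusted p = 0.524). Of 15 tested regulators, p53 included, Trp53 was the only one called, and 6 had a positive fold change.

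Beside Smn1, 4 genes were lower in SMA: Gm17477, Stat4, Msl3 and 4930558K02Rik. Msl3 is a chromodomain protein of the male-specific lethal complex, which acetylates histone H4, and is X-linked. Controls had 22.7, 22.9, 26.3 and 42.4 RPKM and SMA mice 6.36 to 19.0 with a median of 8.83, all below every control (log2 fold change -1.46, SE 0.30, adjusted p = 0.0396). Kat8, the acetyltransferase of the same complex, went the other way without a call: 0.240 to 10.8 in controls and 11.9 to 20.5 in SMA mice (1.78, SE 0.43, adjusted p = 0.0967). The call of Msl3 held in 2 of the 10 fits that left out 1 mouse and was lost with Xist as a covariate. Its fold change lay between -1.64 and -1.17 under the alternatives run. Of the sex-linked genes, Xist was at most 0.225 RPKM in controls 14 and 244 and SMA mice 209 and 211. It was 5.44 to 18.3 in the other day 2 mice. Eif2s3y was 21.9 to 71.5 in the mice with low Xist and at most 4.50 in the others. The share of mice with low Xist was thus not equal in controls and SMA mice. Stat4, a transcription factor of cytokine signalling, was 1.36, 2.02, 4.21 and 6.30 in controls and 0 to 1.71 with a median of 0.108 in SMA mice, where mouse 209 overlapped with the controls (-1.64, SE 0.32, adjusted p = 0.0366). Gm17477, annotated as antisense to Senp6, was 2.06, 3.12, 4.30 and 8.24 in controls and listed at 0 in 4 of 6 SMA mice, the highest of which reached 1.11 (-2.12, SE 0.36, adjusted p = 0.0101). The remaining gene, 4930558K02Rik, was 0.747, 2.25, 2.38 and 2.95 in controls and at most 0.669 in SMA mice (-1.40, SE 0.29, adjusted p = 0.0419).

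Cbx6_ann3 had the largest rise. It is 1 of 4 rows the deposited table gives for Cbx6, a Polycomb chromobox protein, and the table has no position for it. It was listed at 0 in 3 controls and at 1.30 in control 14, against 4.54 to 27.1 in SMA mice with a median of 12.6 (log2 fold change 3.42, SE 0.45, adjusted p = 0.000272). The row Cbx6_ann1 was alike in both groups, 10.8 to 18.5 in controls and 12.5 to 23.9 in SMA mice (0.04, SE 0.22, adjusted p = 0.966). How the authors counted reads for the several rows is not given in the sources used here, so the 2 rows could share reads.

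Rce1 (chr19:4622591-4625641), the protease that trims prenylated CAAX proteins in the endoplasmic reticulum, was listed at 0 in control 244 and at 2.61, 3.04 and 5.33 in the others. It ran from 10.7 through a median of 15.0 to 20.5 in SMA mice, all above every control (log2 fold change 2.36, SE 0.39, adjusted p = 0.00654). Psmg3, a chaperone of proteasome assembly, was 10.7, 12.7, 13.2 and 39.2 in controls and 36.3 to 100.9 in SMA mice, where control 28 lay above the lowest SMA mouse (1.74, SE 0.35, adjusted p = 0.0366). None of 37 proteasome subunits was called (median 0.16, with 6 higher and 0 lower at an unadjusted p under 0.05). Elovl6, a fatty acid elongase, was 5.46 to 12.6 in controls and 14.1 to 21.6 in SMA mice (0.93, SE 0.20, adjusted p = 0.0497). Fam213b, a prostaglandin synthase, was tight in controls at 57.1 to 65.2 and ran from 88.5 to 136.6 in SMA mice (0.83, SE 0.16, adjusted p = 0.0233). Cryz, a quinone reductase, was 0 to 2.15 in controls and 2.68 to 10.6 in SMA mice (1.77, SE 0.38, adjusted p = 0.0497). Tssc1, a protein of endosome recycling, was 9.66 to 17.7 in controls and 24.1 to 36.7 in SMA mice (1.08, SE 0.22, adjusted p = 0.0366). Tmem8b was 0.231 to 4.35 in controls and 3.35 to 7.78 in SMA mice (1.54, SE 0.33, adjusted p = 0.0497).

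Agt (chr8:124556534-124569706) encodes angiotensinogen, which astrocytes make in the brain. Controls were 3.53, 4.92, 5.29 and 5.39 RPKM, and SMA mice ran from 8.91 through a median of 17.03 to 29.1, all above every control. The log2 fold change was 1.65 (SE 0.34, adjusted p = 0.0396), and the call held in 3 of the 10 fits that left out 1 mouse. None of the 10 astrocyte markers was called or had an unadjusted p under 0.05, 7 had a positive fold change, and their median was 0.11. Aqp4 was 3.27 to 7.47 in controls and 3.39 to 16.3 in SMA mice, and Gfap was at or below 1.70 in all 10.

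The 5 genes just short of a call were Fuca1, Tk1, 2510039O18Rik and Arl16, each with an adjusted p of 0.0511, and Ube2m at 0.0578. All were higher in SMA, by 1.58, 1.41, 1.17, 1.58 and 0.65 on the log2 scale, and of the 5 the groups overlapped in Arl16. Of the 20 genes without Smn1, 19 had a position, on 13 chromosomes. GENCODE has another gene overlapping 13 of them, on the opposite strand for 9, and whether counting used strand is not given in the sources used here. Of 19 overlapping genes 7 were tested at day 2, all of them on the opposite strand, and none of the 7 was called. They included Mapk8ip3 beside Mrps34 (log2 fold change -0.08) and Senp6 beside Gm17477 (-0.08). No overlapping gene on the same strand was tested, Nme3 at Mrps34 included.

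Other gene groups showed no call at day 2. Of 34 genes of the unfolded protein and integrated stress response none was called (median 0.25), and Manf (1.47, adjusted p = 0.139) and Xbp1 (0.73, 0.168) had the lowest p. The 27 cell death effectors had a median of 0.33 and 5 higher at an unadjusted p under 0.05, Bax, Bcl2l1, Casp1, Cycs and Tnfrsf1a. Among 31 genes of synaptic vesicle release none was called, and 22 had a positive fold change. An unadjusted p under 0.05 was reached by 6 of them with a positive fold change, the lowest p being that of Syn1 (0.60, 0.00185), and by Snap25 and Sv2b with a negative one. Of 18 motor neuron identity genes none was called, and 3 were lower at an unadjusted p under 0.05: Isl2, Slit2 and Slc5a7, the choline transporter. For the 21 ocular motor identity genes the median was 0.08 and Gata2 alone had such a p. The 7 tested genes that have been proposed to protect ocular neurons had no call (median 0.42). No member of the lists of DNA damage, immediate early genes, axon injury, neuromuscular junction organizers, neuronal cytoskeleton or ion channels was called either.

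Of the 21 day 2 genes 2 were called again at day 5, Smn1 and Snrpa1, where 4 of all genes were called (0.0252%). At day 10, 3 were called again, Smn1, Snrpa1 and Agt, of 57 called in all (0.359%). Agt was not called at day 5, where controls were 8.97 to 13.8 and SMA mice 8.77 to 26.4 (log2 fold change 0.39, SE 0.35, adjusted p = 0.882). At day 10 its controls were 0.681, 3.87, 4.33 and 4.34 and its SMA mice 9.69, 11.01, 11.31, 12.5 and 15.3 (1.72, SE 0.35, adjusted p = 0.0142). Without Smn1, 12 of 20 genes kept their direction at day 5 and 13 of 20 at day 10; over all genes the shares were 53.99% and 53.67%. The median fold change of the 20 in their day 2 direction was 1.64 at day 2, 0.36 at day 5 and 0.12 at day 10; the day 2 value is fixed by the choice of the genes, and values chosen for being extreme are on average smaller in new samples.

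**Figure D2:**
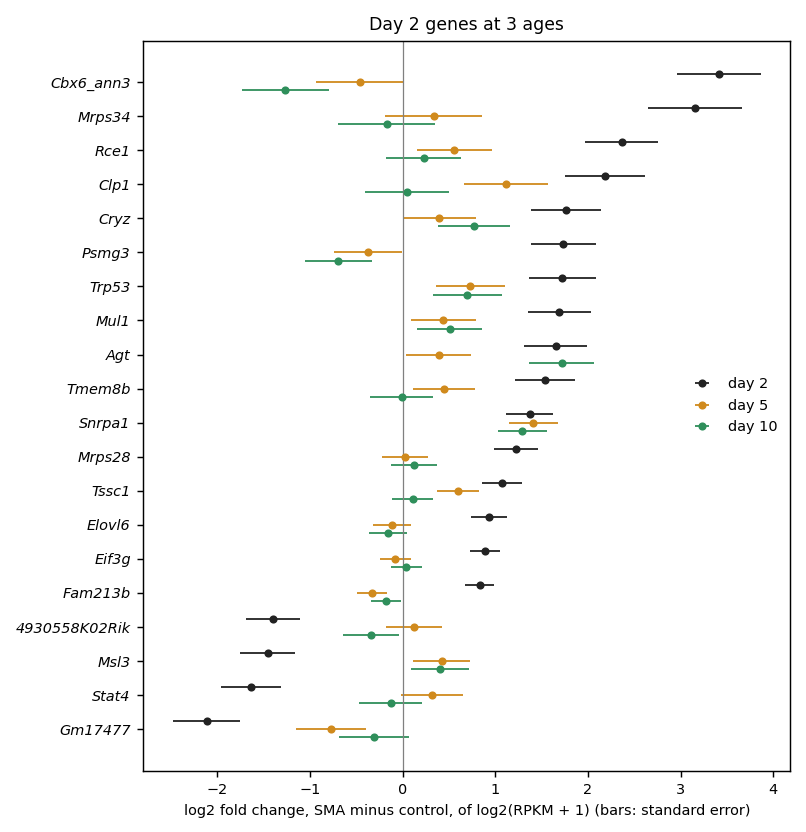
Log2 fold change (SMA minus control, bars 1 SE) of the 20 day 2 genes at day 2 (black), day 5 (orange) and day 10 (green), from one fit of 28 ocular mice. Snrpa1 stays near 1.37 at all 3 ages and Agt returns to 1.72 at day 10. The others were not called at the later ages. The median of the 20 in their day 2 direction is 0.36 at day 5 and 0.12 at day 10.

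The change with age was itself tested. Between day 2 and day 5 the genotype difference changed in 1 gene of 15890 (0.00629%), Cbx6_ann3, by -3.88 (SE 0.65, adjusted p = 0.0356). Between day 2 and day 10 it changed in 20 (0.126%), among them Cbx6_ann3 (-4.68, SE 0.65, adjusted p = 0.000285) and Psmg3 (-2.43, SE 0.50, adjusted p = 0.0384). At day 10 Cbx6_ann3 was 34.9 to 61.4 in controls and 4.20 to 32.5 in SMA mice. For 16 of the 21 genes the contrast against day 5 ran against the day 2 direction with an unadjusted p under 0.05, and for 16 likewise against day 10. Over all 15890 genes such a p was reached by 1113 and 1089, in either direction. All these contrasts use the day 2 mice that chose the genes and are not independent of that choice. Mrps34 moved by -2.82 to day 5 (adjusted p = 0.408) and by -3.33 to day 10 (adjusted p = 0.0665). Trp53 was 3.11 to 14.5 in controls and 7.69 to 19.1 in SMA mice at day 5, and 10.6 to 15.9 and 17.4 to 27.6 at day 10, with fold changes of 0.73 and 0.70 that were not called and a lasting higher mean in SMA.

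Of the 20 genes without Smn1, only Cbx6_ann3 and Psmg3 had a called change with age, so the levels here are a description. Several had a day 2 control mean that lay apart from the later control means. Mrps34 had a control mean of 8.63 RPKM at day 2, 48.6 at day 5 and 54.1 at day 10, while the SMA mean was 58.6, 63.7 and 49.9. Rce1 had 2.75, 10.5 and 10.5 in controls and 15.4, 15.3 and 11.96 in SMA mice. Msl3, lower in SMA at day 2, had 28.6, 10.7 and 8.45 in controls and 10.1, 16.1 and 11.4 in SMA mice. On the log2 scale the day 2 SMA mean lay closer to the later controls than the day 2 control mean did for 16 of 20 genes, against 57.1% of all genes tested. The exceptions were Snrpa1, Agt, Tssc1 and Gm17477. The day 2 controls that enter this count also chose the genes.

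**Figure D3:**
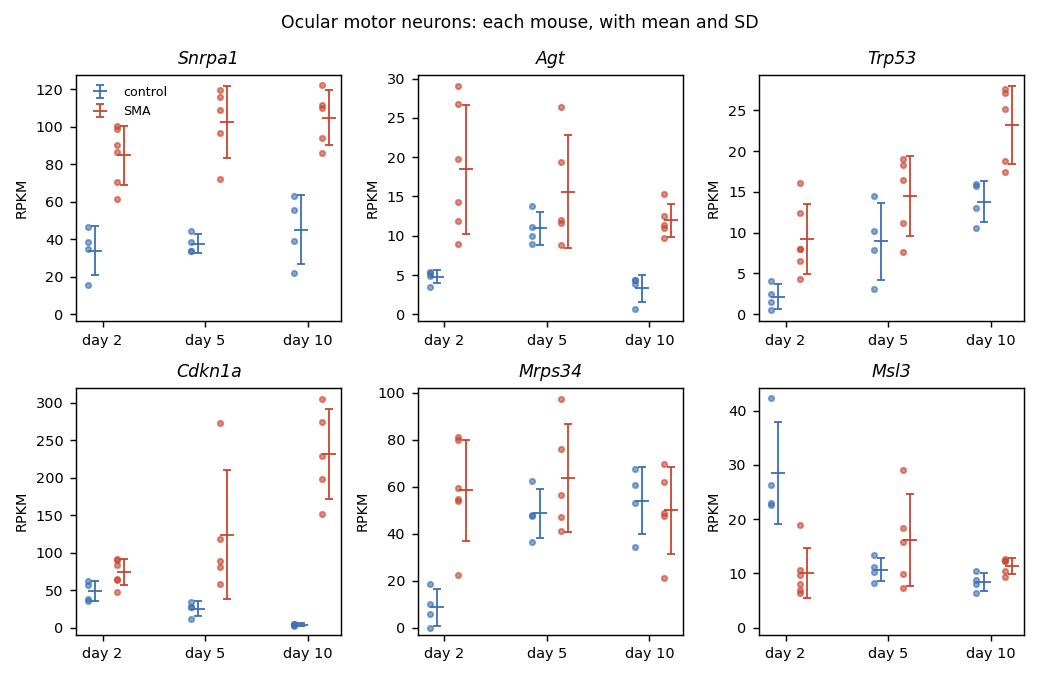
RPKM of each ocular mouse at days 2, 5 and 10 for 6 genes, control in blue and SMA in red, with the group mean and SD (4 to 6 mice a group). Snrpa1 is higher in SMA at each age, Cdkn1a separates later, and Mrps34 and Msl3 differ at day 2, where the controls stand apart from the later controls.

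Controls of the other populations at day 2 gave a second reference. They are in part the same animals: of the ocular control mice, 4 were among the 5 facial, 2 among the 3 vagus, 3 among the 4 hypoglossal, 2 among the 4 lumbar and 4 among the 4 red nucleus controls. For 15 of the 16 raised genes the ocular control mean was below the control mean of all 5 other populations, Agt being the exception, and 19.4% of all genes tested showed this. For each of the 4 lowered genes the ocular control mean was above all 5, as for 18.1% of genes tested. The genes were chosen in part for these ocular control values, so the shares over all genes are no fair background and the counts are a description. Mrps34 averaged 51.4 in facial, 52.6 in vagus, 57.3 in hypoglossal, 54.3 in lumbar and 18.3 in red nucleus controls. Trp53, at 2.17 in ocular controls, was 5.88 to 14.7 in the other controls and 9.22 in ocular SMA mice. The control libraries of this group also had fewer genes above 0 and lower correlations with each other (medians 0.920 to 0.930) than the SMA libraries (0.942 to 0.959). With the number of genes above 0 as a covariate 6 genes were called at day 2, while the log2 fold changes of the 20 genes were 0.89 to 1.03 times those without it. The part of library quality in these levels was not tested.

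**Figure D4:**
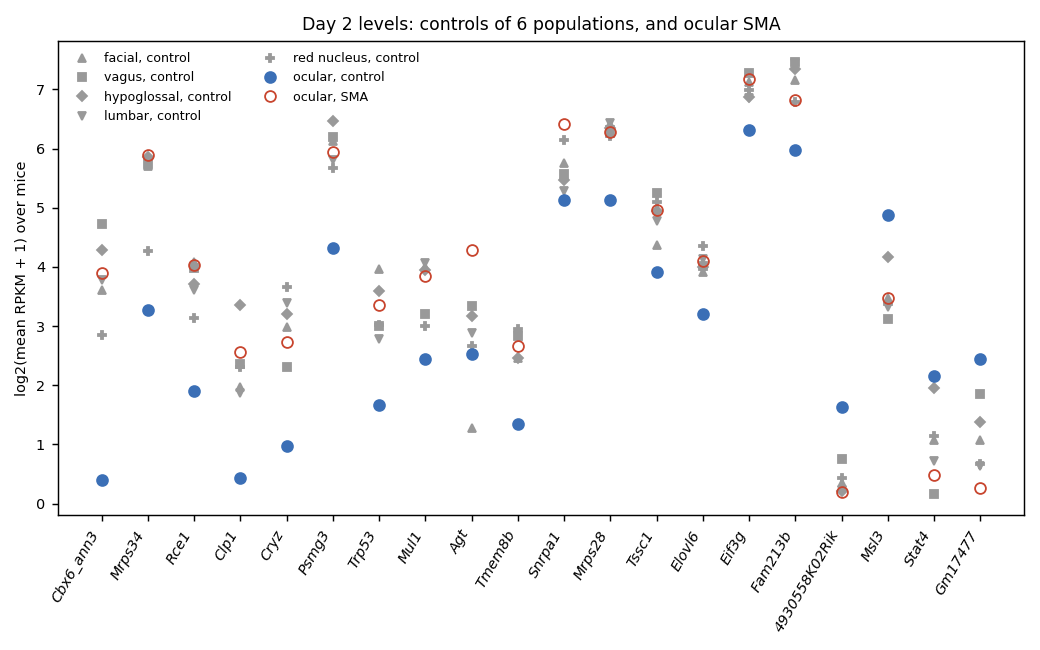
Mean level at day 2, as log2(mean RPKM + 1), of the 20 genes in control mice of 6 populations (blue circle ocular, grey symbols the others) and in ocular SMA mice (open red circle). The blue circle lies below all grey symbols for 15 of the 16 raised genes and above them for the 4 lowered ones, and most red circles lie among the grey symbols.

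Genotype differences elsewhere at day 2 were compared gene by gene, each population in its own fit. Of the 20 genes, those tested that ran in the ocular direction were 10 of 20 in facial, 9 of 19 in vagus, 10 of 19 in hypoglossal, 12 of 19 in lumbar and 9 of 20 in red nucleus neurons. Snrpa1 was called in facial neurons (log2 fold change 1.16, SE 0.22, adjusted p = 0.0486) and lumbar neurons (1.53, SE 0.19, adjusted p = 7.3e-05). These 2 populations had 4 and 2 calls in all (0.0232% and 0.0122% of the genes tested there), and vagus, hypoglossal and red nucleus neurons had 1, 6 and 7 (0.00599%, 0.0364% and 0.0434%). In hypoglossal neurons Snrpa1 was 1.25 (SE 0.27, adjusted p = 0.0857), and in vagus and red nucleus neurons it was -0.19 (SE 0.43) and 0.06 (SE 0.30). Trp53 was 0.93 in lumbar neurons (SE 0.26, adjusted p = 0.521) and 1.01 in red nucleus neurons (SE 0.64, adjusted p = 0.671).

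The difference between populations was then tested directly. Against lumbar neurons, 1 of 18073 genes had a day 2 genotype difference that was itself different in ocular neurons (0.00553%), Mrps34, by 3.71 (SE 0.58, adjusted p = 0.000823). Its lumbar means were 54.3 in controls and 36.6 in SMA mice. Against the mean of the 5 other populations, 72 of 22270 genes differed (0.323%), and 11 of the 20 day 2 genes were among them: Mrps34 (3.69), Clp1 (2.77), Rce1 (2.37), Psmg3 (1.96), Mul1 (1.63), Tmem8b (1.44), Mrps28 (1.34), Eif3g (0.94), Elovl6 (0.87), 4930558K02Rik (-1.54) and Stat4 (-1.76). With the mouse as a block, since populations share mice, these 11 were called again and 2 more were, Fam213b (1.03, adjusted p = 0.0495, without the block 0.0573) and Gm17477 (-1.83, adjusted p = 0.0495, without the block 0.0582). The genes were chosen for their ocular difference, so these values describe its size and are no independent evidence of it. Snrpa1 was not called by this test against lumbar neurons (-0.15, SE 0.32, adjusted p = 0.928) or against the others (0.61, SE 0.31, adjusted p = 0.514), nor was Trp53 (1.31, SE 0.47, adjusted p = 0.247 against the others).

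Looking back from the later ages, few of their genes were called at day 2. Besides Smn1 and Snrpa1, the day 5 genes were Chrac1, a subunit of chromatin remodelling complexes, and Cdkn1a. Chrac1 was 14.8 to 33.2 in controls and 11.7 to 31.5 in SMA mice at day 2 (log2 fold change -0.39, SE 0.32), and at day 5 it was 7.28 to 14.0 and 22.2 to 88.3 (2.11, SE 0.33, adjusted p = 0.00532). Of the 56 day 10 genes without Smn1, 27 had the same direction at day 2, with a median of 0, and 2 were called there. Iapp, which encodes the peptide amylin, was at most 0.225 in all day 2 mice and 15.2 to 66.8 in SMA mice at day 10, when all controls were listed at 0. Ly6d and Them5 were listed at 0 in all 10 day 2 libraries. Cdkn1a rose in its genotype difference from 0.60 at day 2 to 2.13 at day 5 and 5.59 at day 10, and the day 10 minus day 2 change was 5.00 (SE 0.49, adjusted p = 6.002e-07). At day 10 13 of 47 p53 targets were called, all higher, and the median of the 47 was 1.03. Of all 15890 genes 57 were called at that age (0.359%), 53 of them higher, and the median was 0.06. Gpx3, a secreted glutathione peroxidase and a top gene of day 10, was 8.41 to 32.1 in day 2 controls and 22.2 to 98.9 in SMA mice, highest in mouse 206 (1.13, SE 0.44, adjusted p = 0.331).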

How the data were processed

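The authors deposited 1 table of RPKM for the series, with 39410 gene rows and 168 libraries, of which 8942 rows were 0 in every library. Per the submitters' processing notes, reads were aligned with STAR 2.4.1c to mm10, with hg19 also named; the read counter and annotation are not given in the sources used here. Ocular RPKM of libraries from 1 mouse were averaged (34 libraries, 28 mice; at day 2, 1 library a mouse). Genes with RPKM of at least 1 in at least 4 mice (15890) entered 1 fit of 6 groups on the scale log2(RPKM + 1), by lmFit and eBayes with trend of limma 3.58.1 (R 4.3.3), with two-sided tests adjusted over all genes. Such fold changes understate the change of low genes. The table holds no counts; depth was read from the steps of low values of genes with a single transcript, of which not all fell on whole reads, and no count test was run. The fit was tested on simulated data.

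Mouse numbers mark 1 animal across populations and pair no samples within the ocular comparison. In fits across populations the mouse as a replicate block changed neither call of Mrps34, with a consensus correlation of 0.0158 for ocular with lumbar and 0.0366 for all populations. Positions are from GENCODE M21 (GRCm38, the assembly of mm10), matched by symbol for 35283 rows (89.5%).

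The comparison, the gene lists and the tests were chosen with earlier results of these data known. Named genes were Smn1, all day 2 calls, the next 5 by p, all day 5 calls, the 10 lowest p at day 10 and in each change with age, and list members that were called at any age, highest in level or lowest in day 2 p.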

Additional observations from a re-analysis of the deposited data

Results flagged for a closer look

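Each of the 21 day 2 genes was examined in 6 groups of 4 to 6 mice. By chance about 1 in 20 groups of continuous values has a highest or lowest mouse far from the rest. That rate is no fair background where the other mice are listed at 0, since any read then stands out. In 18 of the groups the highest or lowest mouse stood far from the rest. At day 2 these were Smn1 in SMA mouse 207 (0.5551 RPKM, others 0), Cbx6_ann3 in control 14 (1.296, others 0), Gm17477 in SMA mouse 16 (1.106), Stat4 in SMA mouse 209 (1.711), Clp1 in control 244 (1.37, others 0), Psmg3 in control 28 (39.22, next 13.15), Msl3 in SMA mouse 211 (18.98, next 10.59), 4930558K02Rik in SMA mouse 38 (0.6686) and Elovl6 in SMA mouse 206 (21.61, next 15.62). At day 5 they were Smn1 (1.463), Eif3g (151.2) and Clp1 (10.47) in SMA mouse 31, Stat4 in control 29 (0.6975), Mul1 in SMA mouse 77 (14.09, the lowest) and 4930558K02Rik in control 71 (0.5523). At day 10 they were Stat4 in SMA mouse 250 (0.1661), Agt in control 247 (0.6807, the lowest) and Cryz in SMA mouse 249 (18.28).

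The genotype difference changed with age in several genes, by limma's test of the difference. For Cbx6_ann3 the log2 difference moved by -3.877 between days 2 and 5 and by -4.681 between days 2 and 10. Over the latter span the difference grew for Iapp (5.109), Cdkn1a (4.995), Ly6d (4.947), Ddit4l (3.701), Cpne2 (3.62), Tcea3 (3.428), Ccl17 (2.513), Scn3b (2.385) and Them5 (2.267). Of these, Scn3b, a subunit of sodium channels, had overlapping values at day 2 (28.0 to 35.2 RPKM in controls, 31.3 to 45.7 in SMA mice) and fell in controls to 0.751 to 2.85 at day 10, against 14.3 to 22.2 in SMA mice.

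Between populations, the day 2 difference of Mrps34 was larger in ocular than in lumbar neurons by 3.708. Against the mean of the other 5 populations the excess was 3.692 for Mrps34, 2.772 for Clp1, 2.37 for Rce1, 1.958 for Psmg3, 1.625 for Mul1, 1.441 for Tmem8b, 1.342 for Mrps28, 0.944 for Eif3g and 0.875 for Elovl6, and it was -1.54 for 4930558K02Rik and -1.763 for Stat4.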

How the results depend on the processing

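With 4 to 6 mice a group the number of day 2 genes depended on the fit. Against 21 it was 0 with only the day 2 groups, 12 with each library as its own sample, 3 with libraries weighted by quality (arrayWeights), 6 with the number of genes above 0 as a covariate, 7 without mice 244 and 206 together (chosen after seeing the data), and 9 to 76 leaving out 1 mouse. The day 5 count of 4 became 2, 16 and 7 with only the groups compared, with each library and with the genes covariate, and 1 (without control 29) to 9 (without control 71) leaving out 1 mouse. The day 10 count of 57 became 100 with each library, 276 with arrayWeights, and 37 (without control 247) to 66.

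The 1 gene of day 5 minus day 2 became 0 with a pseudocount of 5, no filter, only the groups compared, no trend or arrayWeights, 2 with a filter at RPKM 5 or the genes covariate, and 0 to 2 leaving out 1 mouse. The 20 genes of day 10 minus day 2 became 10 with a pseudocount of 0.1, and 12 to 30. Day 2 genes called again numbered 3, but 1 with arrayWeights or the genes covariate, and 1 (without 244, 209 or 196) to 4. The ocular minus lumbar count of 1 became 2 with a pseudocount of 0.1, and 1 to 60 (without control 28). Against the other populations, the share of tested genes called was 0.323%, and it was 0.617% with no filter and 0.127% (without SMA 206) to 0.816% (without control 28) leaving out 1 mouse. With the mouse as a replicate block, the paired fits gave 1 and 94 genes (0.422%), the latter with all 72 of the unpaired fit. The cause of these shifts was not tested.

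No named gene reversed under any alternative run: of 480 alternative values of day 2 genes, 268 kept the call and 212 kept the direction only. With Xist as a covariate the calls of Msl3, 4930558K02Rik, Trp53, Agt, Tmem8b, Elovl6 and Cryz were lost. Depth limits genes below about 1 RPKM.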
